A study of Homo sapiens with 6 samples.

Results

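The integrated stress response was examined in 22RV1, a human cell line of castration-resistant prostate cancer (CRPC), through 10 of the 26255 genes listed in the RNA-seq files. The members were taken by gene symbol and all 10 were found. They comprise ATF4, the genes DDIT3, ATF3, PPP1R15A, CHAC1, TRIB3, SESN2 and DDIT4 of the arm that ATF4 controls, and the eIF2α kinase genes EIF2AK3 and EIF2AK4. RNA was sequenced from 3 samples treated with vehicle (DMSO) and 3 samples treated with 10 nM bruceantin (BCT), a quassinoid, for 24 h. All 6 samples were grown in medium with FBS and all come from a single cell line. The labels do not say whether the samples of a group were separate cultures, so the p-values measure the spread between these samples only, which may be technical.

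In the integrated stress response, kinases that sense distinct stresses phosphorylate the translation factor eIF2 on its alpha subunit. EIF2AK3 (PERK) senses unfolded protein in the endoplasmic reticulum, EIF2AK4 (GCN2) uncharged tRNA and stalled ribosomes, EIF2AK1 (HRI) heme shortage and mitochondrial stress, and EIF2AK2 (PKR) double-stranded RNA. Phosphorylated eIF2 blocks its exchange factor eIF2B, which lowers translation in general while the mRNAs of ATF4, DDIT3 and PPP1R15A, which carry upstream open reading frames, are translated more. ATF4 protein then switches on genes of amino acid supply, redox balance and cell death, and PPP1R15A closes the loop by bringing a phosphatase to eIF2. RNA-seq reads the mRNA step of this circuit and neither the phosphorylation nor the proteins.

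The arm responded in parts. With BCT, mRNA of ATF4, DDIT3, ATF3, PPP1R15A, CHAC1 and SESN2 rose, with mean ratios to DMSO from 3.03 for SESN2 to 11.2 for PPP1R15A. The 2 kinase genes were 1.62 and 1.71 times as high and missed the fold change cutoff. TRIB3 and DDIT4, which are also used as readouts of ATF4 activity, did not rise as deposited, at 0.895 and 0.692 times their DMSO means.

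The sequences upstream of 4 members are shown because these genes answered unequally: PPP1R15A, CHAC1 and DDIT3 rose and TRIB3 did not. Each is the 250 bases before a transcript start in RefSeq (GRCh38.p14), read 5′ to 3′ on the strand of the gene. The stretches are chr15:40953221-40953470 for CHAC1 (plus strand), chr19:48872171-48872420 for PPP1R15A (plus strand), chr12:57520515-57520764 for DDIT3 (minus strand) and chr20:381045-381294 for TRIB3 (plus strand). Capitals mark matches to the motifs searched.
CHAC1: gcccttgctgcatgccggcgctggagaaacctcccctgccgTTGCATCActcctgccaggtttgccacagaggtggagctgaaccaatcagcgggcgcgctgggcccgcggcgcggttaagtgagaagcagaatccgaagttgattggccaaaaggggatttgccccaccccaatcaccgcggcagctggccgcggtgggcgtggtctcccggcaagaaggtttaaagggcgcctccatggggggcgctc
PPP1R15A: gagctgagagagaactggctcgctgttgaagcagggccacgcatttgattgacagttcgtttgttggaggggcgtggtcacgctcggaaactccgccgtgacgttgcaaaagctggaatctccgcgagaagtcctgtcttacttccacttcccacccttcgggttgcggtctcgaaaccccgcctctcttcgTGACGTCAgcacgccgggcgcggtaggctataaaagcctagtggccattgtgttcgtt
DDIT3: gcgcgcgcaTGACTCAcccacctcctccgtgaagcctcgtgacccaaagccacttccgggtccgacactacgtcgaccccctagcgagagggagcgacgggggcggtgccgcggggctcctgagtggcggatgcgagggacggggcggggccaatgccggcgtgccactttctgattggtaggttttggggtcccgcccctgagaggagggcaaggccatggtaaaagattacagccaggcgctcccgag
TRIB3: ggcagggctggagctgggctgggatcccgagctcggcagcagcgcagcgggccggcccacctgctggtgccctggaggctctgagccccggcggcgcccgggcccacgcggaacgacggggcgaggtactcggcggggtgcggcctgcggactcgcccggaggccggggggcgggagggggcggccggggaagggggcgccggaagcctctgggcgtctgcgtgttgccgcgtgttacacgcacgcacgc

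Motifs were searched on both strands of these 250 bases. The core of the C/EBP-ATF response element, TGATGNAA, to which ATF4 binds with C/EBP proteins, was found on the opposite strand of CHAC1 from 209 to 202 bases before the start. The cAMP response element TGACGTCA was found in PPP1R15A from 58 to 51 bases before the start. An AP-1 site, TGANTCA, was found in DDIT3 from 241 to 235 bases before the start. The TRIB3 stretch held none of the motifs, which says only that these letters are not in this window.

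All 10 members had a RefSeq window, 15 windows in all. TGATGNAA occurred in 2 members (CHAC1 and ATF3), TGACGTCA in 1 (PPP1R15A), TGANTCA in 2 (DDIT3 and EIF2AK4) and TGACGNAA, a variant of the C/EBP-ATF core, in 0. Of all 27305 genes with a window, 3.89% held TGATGNAA in at least 1 window, 2.03% TGACGTCA, 8.06% TGANTCA and 1.77% TGACGNAA. Among the 35116 windows the shares were 3.14%, 1.65%, 6.57% and 1.43% in the same order. The windows of ATF4 and SESN2, which also rose, held none of these motifs, and EIF2AK4, which held TGANTCA, was not called. These matches are descriptions of the sequence and were not tested as sites.

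The authors deposited FPKM, fragments scaled by transcript length and by mapped reads, so levels can be set side by side between genes but the number of reads behind a value is unknown. From the steps between low values, depth relative to DMSO replicate 1 was 0.878 to 1 with DMSO and 1.06 to 1.13 with BCT. Per sample, FPKM added up to 1169649 to 1572321 with DMSO and to 757534 to 799838 with BCT, and a single gene, MIR6087, held 31.7% to 55.3% of a sum. The prostate epithelial markers TMPRSS2, FOLH1, KRT8, KRT18, EPCAM and HOXB13 were above 3 FPKM in every sample. They moved in both directions: KRT8 and KRT18, the luminal keratins, were called higher (log2 fold changes of 1.17 and 1.72) and TMPRSS2, a serine protease gene, was called lower (-1.59). KRT18 was at 333 to 341 FPKM with DMSO and 1065 to 1148 FPKM with BCT, TMPRSS2 at 11.7 to 13.4 FPKM and 3.55 to 5.17 FPKM, and the part of these shifts in the results was not tested. The 6 markers of other cells summed to 7.75 to 8.74 FPKM with DMSO and 10.2 to 10.8 FPKM with BCT, most of it VIM and COL1A1. COL1A1, a collagen gene, was called higher, from 1.23 to 1.55 FPKM with DMSO to 5.04 to 6.31 FPKM with BCT, and its part in the results was not tested. PECAM1 and PTPRC, markers of endothelium and leukocytes, were at most 0.036 FPKM, with PECAM1 listed at 0 in 3 samples and PTPRC in 1. Fewer cells that express a gene and less RNA of it per cell cannot be told apart in such bulk samples.

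All fold changes are on the scale of log2(FPKM + 0.1), where the change of low genes comes out too small. limma was run over the 12729 genes whose mean reached 1 FPKM. Calls required a log2 fold change beyond 0.85 in either direction together with a Benjamini-Hochberg FDR below 0.05. All 10 members passed the filter. Of them, 6 were called higher, against 13.9% of all tested genes, and 0 were called lower, against 17.8% of all tested genes. At the FDR alone, 8 members were higher and 2 lower, against 39.3% and 42.8% of all tested genes. The 2 lower members, TRIB3 and DDIT4, did not stay below that FDR in all alternatives. The groups did not overlap in 8 members that were higher with BCT, against 41.0% of all tested genes, and in 1 that was lower, against 44.3%. The median log2 fold change was 1.64 over the members and -0.04 over all tested genes. Rescaled to equal FPKM sums, which raised the median of all genes to 0.73, 8 members were called higher and 0 lower, and the calls over all genes shifted from 1764 higher and 2263 lower to 5706 higher and 653 lower. Rescaling without MIR6087 gave 3402 higher and 1191 lower. With equal sums, the adjusted p of ATF4 from limma was 5.3e-82, too small to credit with 3 samples per group. The factors move all genes of a sample together, so the calls with equal sums describe fold changes only.

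**Figure D1:**
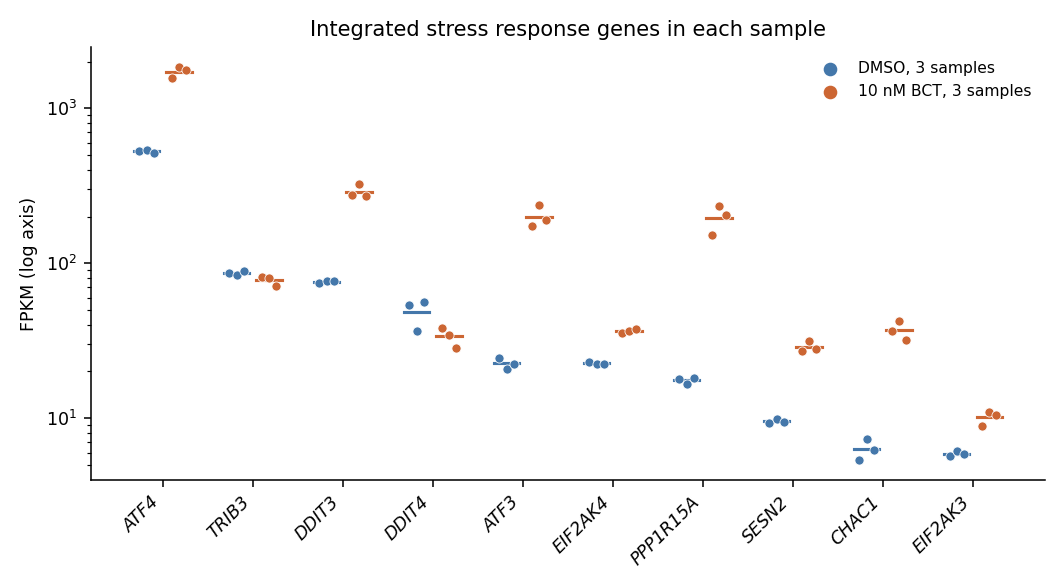
FPKM of the 10 members in each sample on a log axis, ordered by the DMSO mean. Points are samples, 3 per group, and bars are group means. The BCT points lie above the DMSO points in 8 genes, below them in TRIB3, and overlap them in DDIT4.

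ATF4 encodes the transcription factor at the center of the response, from 39916564 to 39918691 on chromosome 22 of hg19. It was at 532, 537 and 514 FPKM in DMSO replicates 1 to 3 and at 1559, 1845 and 1759 FPKM in BCT replicates 1 to 3. Every BCT sample was thus far above every DMSO sample. The log2 fold change was 1.70 (SE, the standard error, 0.07, adjusted p = 5.0e-07 from limma). Already the highest member with DMSO, ATF4 ranked 172 of 12729 tested genes by its DMSO mean and 29 by its BCT mean.

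DDIT3 encodes CHOP, a bZIP factor induced by ATF4 and linked to cell death in prolonged stress. Its values were 74.4, 77.1 and 76.6 FPKM with DMSO and 274, 322 and 271 FPKM with BCT. The DMSO samples differed little and all BCT samples were higher, with a log2 fold change of 1.92 (SE 0.07, adjusted p = 3.7e-07 from limma). The deposited annotation merges DDIT3 with its neighbor MARS into chromosome 12 from 57881736 to 57914300 of hg19, and 39.6% of the exonic bases of DDIT3 in GENCODE (57910371 to 57915520 on GRCh37) overlap exons of other genes, chiefly MARS1 on the opposite strand. The library kit does not mark strand, so reads in the overlap cannot be told apart. MARS itself was at 79.6 ± 4.42 FPKM with DMSO and 133.6 ± 10.2 FPKM with BCT (SD, n = 3 each), a ratio of 1.68 against 3.80 for DDIT3.

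ATF3, a bZIP factor of the same family that acts with ATF4 and CHOP, lies on chromosome 1 from 212738676 to 212794119 of hg19. It was at 24.4, 20.8 and 22.4 FPKM in the DMSO samples and 174, 236 and 190 FPKM in the BCT samples. The groups lay wide apart, with a log2 fold change of 3.13 (SE 0.11, adjusted p = 3.3e-07 from limma). With DMSO its mean equaled that of EIF2AK4, at 22.6 FPKM, and with BCT it was the third highest member.

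PPP1R15A encodes GADD34, the inducible subunit that directs protein phosphatase 1 to eIF2α. On chromosome 19 from 49375649 to 49379319 of hg19, it had the largest log2 fold change of the members, 3.46 (SE 0.14, adjusted p = 5.1e-07 from limma). Its values were 17.8, 16.7 and 18.3 FPKM with DMSO and 151, 234 and 206 FPKM with BCT. BCT replicate 1 was the lowest of the treated samples and was still far above every DMSO sample. Of all tested genes, 66 had a larger log2 fold change.

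CHAC1 encodes a gamma-glutamylcyclotransferase that degrades glutathione, and is induced through ATF4 (chromosome 15, 41245636 to 41248717). The values were 5.37, 7.35 and 6.25 FPKM with DMSO and 36.4, 42.2 and 32.1 FPKM with BCT. Among the called members CHAC1 varied most with DMSO, with a coefficient of variation of 15.7%, against 13.7% with BCT, where PPP1R15A (21.3%) and ATF3 (16.2%) varied more. No sample of a group reached the other. Its log2 fold change was 2.53 (SE 0.13, adjusted p = 1.0e-06 from limma).

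SESN2 encodes sestrin 2, a leucine sensor that restrains mTORC1 (chromosome 1, 28585963 to 28609002). It was at 9.32, 9.80 and 9.42 FPKM in the DMSO samples and 27.2, 31.4 and 27.9 FPKM in the BCT samples. The change was the smallest of the 6 called members, with a log2 fold change of 1.59 (SE 0.07, adjusted p = 5.5e-07 from limma), and the groups did not overlap.

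TRIB3 encodes a pseudokinase that binds AKT and ATF4 and is a common marker of ATF4 activity (chromosome 20, 361273 to 378203). It was at 86.3, 84.4 and 89.2 FPKM in the DMSO samples and 81.5, 79.7 and 71.4 FPKM in the BCT samples. Every BCT sample was slightly below every DMSO sample, and the log2 fold change of -0.16 (95% interval -0.30 to -0.02, adjusted p = 0.035 from limma) was far from the cutoff. Its sign depended on the scaling, with 0.61 after rescaling to equal sums, 0.22 without MIR6087 and 0.01 after quantile normalization. After the rescalings it lay below the median of all genes, at 0.73 and 0.35. The second highest member with DMSO, TRIB3 was the fifth with BCT.

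DDIT4 encodes REDD1, an inhibitor of mTORC1 that several stress pathways induce (chromosome 10, 74033677 to 74035797). Its values were 53.7, 36.7 and 55.9 FPKM with DMSO and 38.4, 34.6 and 28.3 FPKM with BCT. DMSO replicate 2 lay within the BCT range, so the groups overlapped, and the coefficient of variation with DMSO, 21.6%, was the highest of any member. The log2 fold change was -0.52 (95% interval -0.91 to -0.13, adjusted p = 0.02 from limma), and it turned to 0.25 after rescaling to equal sums, below the median of all genes.

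**Figure D2:**
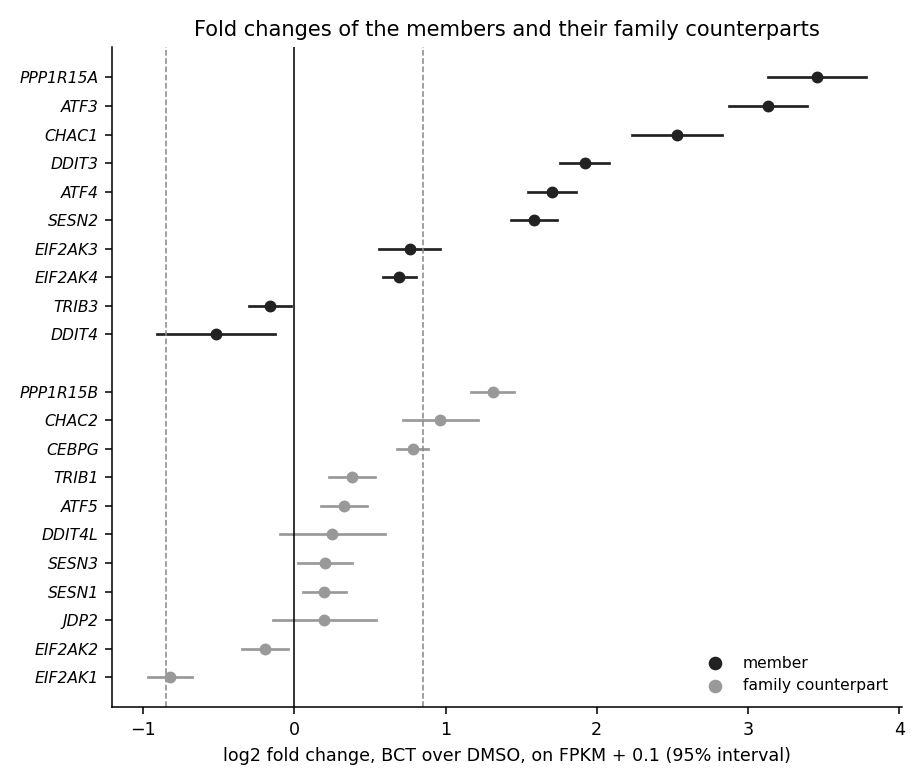
Log2 fold change of BCT over DMSO on FPKM + 0.1 with its 95% interval from limma (3 samples per group) for the 10 members (black) and 11 tested family counterparts (gray). Dashed lines mark the cutoff of 0.85 in each direction, and 6 members and 2 counterparts lie beyond the upper line.

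Of the kinase genes among the members, EIF2AK3 was the lower in every sample. EIF2AK3 (chromosome 2, 88838238 to 88927094) was at 5.70, 6.18 and 5.84 FPKM in the DMSO samples and 8.88, 10.99 and 10.5 FPKM in the BCT samples. The BCT samples were all higher, and its log2 fold change of 0.76 (95% interval 0.56 to 0.96, adjusted p = 5.2e-05 from limma) missed the cutoff. Without BCT replicate 1 the value was 0.85 and EIF2AK3 was called, as it was after rescaling to equal sums with MIR6087 (1.52) or without it (1.14). In GENCODE, 3.77% of its exonic bases overlap a noncoding gene on the opposite strand.

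EIF2AK4 (chromosome 15, 40226325 to 40327797) was at 22.9, 22.5 and 22.3 FPKM in the DMSO samples and 35.6, 36.8 and 37.4 FPKM in the BCT samples. It varied the least of all members within each group, and the groups stood clearly apart. Its log2 fold change was 0.70 (95% interval 0.59 to 0.80, adjusted p = 2.8e-06 from limma), short of the cutoff as deposited, and 1.46 and 1.08 in the same 2 rescalings.

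The other kinase genes had values in the opposite direction as deposited. After either rescaling that of EIF2AK2 turned positive, while that of EIF2AK1 kept its sign but shrank. With equal sums the median of all genes went from -0.04 to 0.73, so EIF2AK1, still negative, lay below that median as it did before. EIF2AK1, by far the highest of the 4 kinase genes, was at 99.8, 96.0 and 96.9 FPKM in the DMSO samples and 60.1, 51.7 and 54.0 FPKM in the BCT samples, a log2 fold change of -0.82 that stopped just short of the cutoff. Without BCT replicate 1 EIF2AK1 was called lower, which made 1 family counterpart and 2 genes of the eIF2 axis called lower in place of 0 and 1. EIF2AK2 was at 9.21, 9.25 and 8.62 FPKM in the DMSO samples and 8.46, 7.46 and 7.73 FPKM in the BCT samples, a log2 fold change of -0.19. The mRNA of the 4 kinases together summed to 135.0 ± 2.204 FPKM with DMSO and 109.9 ± 3.09 FPKM with BCT (SD, n = 3 each). Within that sum, EIF2AK1 made up 71.7% to 72.5% with DMSO and 48.4% to 53.1% with BCT. EIF2AK4 made up 16.6% to 16.8% with DMSO and 31.5% to 34.4% with BCT, and EIF2AK3 4.14% to 4.61% and 7.85% to 10.3%. These shares come from within each sample and do not depend on a scaling by a single factor.

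**Figure D3:**
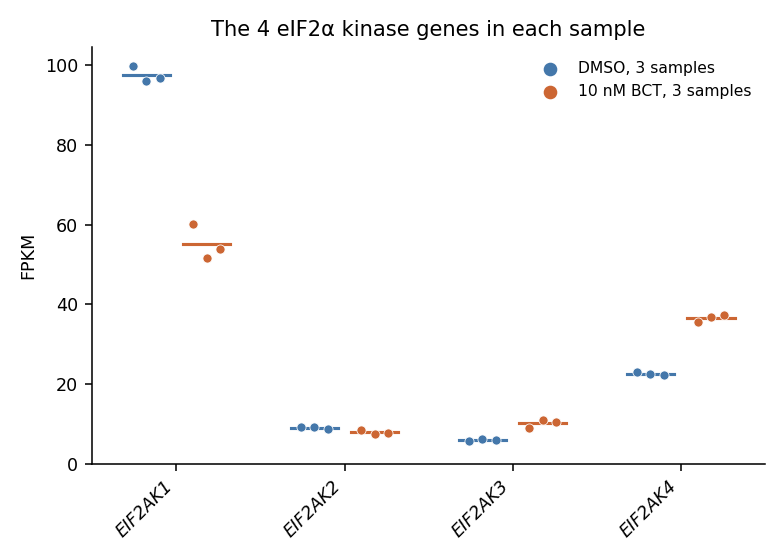
FPKM of the 4 eIF2α kinase genes in each sample, with 3 points per group and bars for group means. EIF2AK1 is lower and EIF2AK3 and EIF2AK4 are higher in every BCT sample than in any DMSO sample, as deposited.

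Several members have close relatives in the genome, and the ratio of a member to its relative within a sample compares their changes directly. PPP1R15B encodes the constitutive subunit that directs protein phosphatase 1 to eIF2α. It rose too, from 23.9, 25.4 and 24.1 FPKM with DMSO to 56.3, 63.7 and 63.1 FPKM with BCT, a log2 fold change of 1.31. The log2 ratio of PPP1R15A to PPP1R15B was -0.43, -0.61 and -0.40 with DMSO and 1.42, 1.87 and 1.70 with BCT, so the inducible subunit was the lower of the pair in each DMSO sample and the higher in each BCT sample.

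CHAC2, a relative of CHAC1 with slow constitutive activity, rose with a log2 fold change of 0.96, and missed the cutoff with a pseudocount of 1. Even so, the log2 ratio of CHAC1 to CHAC2 was 1.56 higher with BCT. SESN1 and SESN3, the other sestrins, had log2 fold changes of 0.20 each, and the log2 ratio of SESN2 to them was 1.39 and 1.38 higher. TRIB1, a pseudokinase that recruits a ubiquitin ligase, had a log2 fold change of 0.38, so that the log2 ratio of TRIB3 to TRIB1 was 0.54 lower with BCT. TRIB2 was near 0 in all samples, from 0.006 to 0.026 FPKM, and was not tested. DDIT4L, the relative of DDIT4, had overlapping groups and a log2 fold change of 0.25 (95% interval -0.10 to 0.60).

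Among the kinases, the log2 ratio of EIF2AK3 to EIF2AK1 was 1.58 higher with BCT and that of EIF2AK4 to EIF2AK1 1.52 higher. Against EIF2AK2, EIF2AK3 was 0.96 and EIF2AK4 0.89 higher. The ratio of EIF2AK3 to EIF2AK4 itself overlapped between the groups, at -1.92 ± 0.07 with DMSO and -1.85 ± 0.13 with BCT on the log2 scale (SD, n = 3 each; exact permutation test, two-sided, p = 0.5). In the other 9 of the 10 ratios tested the groups did not overlap, and the exact permutation test, two-sided, gave each p = 0.1, the smallest that 3 samples against 3 allow, or 0.11 after adjustment over the 10 ratios. None can pass 0.05 in this design.

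The order of the members changed with treatment. With DMSO it ran from ATF4 at 527.6 FPKM through TRIB3 (86.6), DDIT3 (76.0), DDIT4 (48.8), ATF3 (22.6), EIF2AK4 (22.6), PPP1R15A (17.6), SESN2 (9.52) and CHAC1 (6.32) to EIF2AK3 (5.91). Neighbors in that order had ranges that overlapped only for ATF3 with EIF2AK4 and for CHAC1 with EIF2AK3. With BCT the order was ATF4 (1721), DDIT3 (288.9), ATF3 (199.98), PPP1R15A (196.9), TRIB3 (77.5), CHAC1 (36.9), EIF2AK4 (36.6), DDIT4 (33.8), SESN2 (28.8) and EIF2AK3 (10.1), in mean FPKM. Here ATF3 and PPP1R15A overlapped, and so did each neighboring pair from CHAC1 to SESN2. With BCT the places after ATF4 were held by DDIT3, ATF3 and PPP1R15A, whereas with DMSO TRIB3 came directly after ATF4.

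Set against ATF4 in the same sample, the members fell into different patterns. Per 100 FPKM of ATF4, DDIT3 was at 14.4 ± 0.46 with DMSO and 16.8 ± 1.22 with BCT, and SESN2 at 1.80 ± 0.04 and 1.68 ± 0.08 (SD, n = 3 each), so both kept close to the level of ATF4 mRNA although the groups did not overlap. ATF3 went from 4.28 ± 0.36 to 11.6 ± 1.08, PPP1R15A from 3.33 ± 0.22 to 11.4 ± 1.51 and CHAC1 from 1.20 ± 0.18 to 2.15 ± 0.28, a larger change than that of ATF4 itself. TRIB3 went from 16.4 ± 0.83 to 4.53 ± 0.61 and DDIT4 from 9.27 ± 2.14 to 1.98 ± 0.44 per 100 FPKM of ATF4. No member overlapped between the groups on this measure, which cancels any scaling by a single factor per sample. ATF4 itself rose, so a gene that stayed level also separates on it. The share over all genes was not computed for this measure. On FPKM as deposited, 41.0% of all tested genes were higher and 44.3% lower without overlap.

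**Figure D4:**
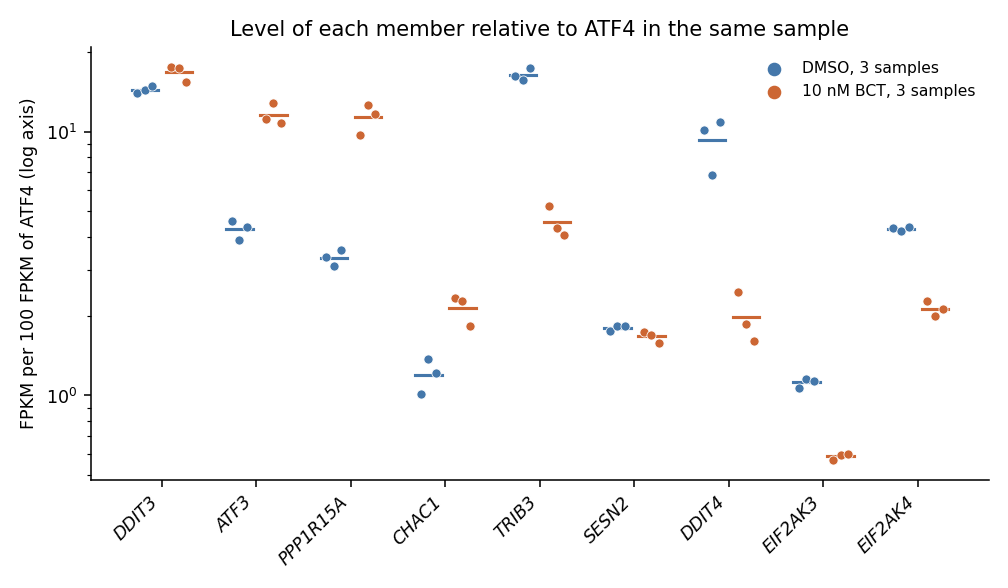
FPKM of each of the other 9 members per 100 FPKM of ATF4 in the same sample, on a log axis, with 3 points per group and bars for group means. ATF3, PPP1R15A and CHAC1 are higher relative to ATF4 with BCT, TRIB3, DDIT4, EIF2AK3 and EIF2AK4 are lower, and DDIT3 and SESN2 shift least.

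The treated samples were not equally far from DMSO. BCT replicate 1 was the BCT sample nearest to the DMSO mean in 8 of 10 members, the exceptions being DDIT3 and CHAC1, where it was replicate 3. BCT replicate 2 held the highest BCT value in 7 members. Over all tested genes, the correlation with the DMSO samples was 0.892 to 0.896 for BCT replicate 1 and 0.851 to 0.857 for the other BCT samples, which is a correlation across genes. Without BCT replicate 1, 7 members were called higher, the added gene being EIF2AK3.

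The 5 genes outside the lists whose profile over the 6 samples was most like that of ATF4, by Pearson correlation of log2(FPKM + 0.1), were UBAP1, LOC101059948, TBC1D22B, TXNIP and FRMD4B, with r between 0.9998 and 0.9999 over 6 samples. The correlation rests mainly on the difference between the groups, which many genes share, and is given as a description. UBAP1, a subunit of an endosomal sorting complex, went from 35.1 ± 0.46 to 121.7 ± 11.1 FPKM, and TXNIP, an inhibitor of thioredoxin, from 125.1 ± 6.68 to 1510 ± 257 FPKM (SD, n = 3 each).

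The target of the kinases and its exchange factor changed unevenly. Among 21 genes of the eIF2 axis, 3 were called higher and 1 lower, against 13.9% and 17.8% of all tested genes, with a median log2 fold change of -0.03 against -0.04 over all tested genes. Besides PPP1R15B, the genes that rose were EIF2B4 and EIF2B2, which encode subunits of eIF2B, with log2 fold changes of 1.46 and 1.41. EIF2B4 was at 25.0, 24.2 and 23.9 FPKM in the DMSO samples and 63.9, 72.6 and 65.3 FPKM in the BCT samples. Of the other subunits of eIF2B, EIF2B5 (0.72) and EIF2B3 (0.64) were higher below the cutoff and EIF2B1 had -0.21, a sign that turned after either rescaling. EIF2S3, the gamma subunit of eIF2, fell from 55.2, 52.1 and 54.7 FPKM to 27.0, 27.3 and 28.2 FPKM, a log2 fold change of -0.97, while EIF2S1 and EIF2S2, the alpha and beta subunits, had 0.49 and 0.37. After rescaling to equal sums, 10 genes of the axis were called higher and 0 lower, and the fall of EIF2S3 was no longer called. Over all genes, the calls went from 1764 to 5706 higher and from 2263 to 653 lower in that setting.

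The bZIP partners, with which ATF4, CHOP and ATF3 form dimers, had positive values in 9 of 10 genes, against 6134 of 12729 tested genes. Of the 10, 3 were called higher and 0 lower, against 13.9% and 17.8% of all tested genes, with a median of 0.56. After rescaling to equal sums 9 were called higher with a median of 1.32, and without MIR6087 in the sum 5 with a median of 0.94. Over all genes these rescalings called 5706 and 3402 higher in place of 1764, with medians of 0.73 and 0.35. FOS and JUN, the AP-1 subunits, rose with log2 fold changes of 4.34 and 3.50, and CEBPD rose with 1.605. JUN was at 20.6, 19.4 and 20.2 FPKM in the DMSO samples and 195, 262 and 230 FPKM in the BCT samples, a ratio of means of 11.4 beside 11.2 for PPP1R15A. CEBPG, a partner of ATF4 at amino acid response genes, had 0.78, and ATF5, which is translated under the same control as ATF4, had 0.33, both below the cutoff. JDP2, a repressor related to ATF3, had 0.20 with groups that overlapped. NFE2L1 was the only gene of the list with a negative value, at -0.27, and that sign was lost after rescaling to equal sums.

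Of the amino acid supply genes that ATF4 is known to switch on, 17 had a negative value as deposited. Over all tested genes, 6595 of 12729 did. Of 22 listed genes 21 were tested. Of these 3 were called higher, a share close to the 13.9% of all tested genes, and 6 lower, against 17.8% of all tested genes, and the median log2 fold change was -0.74. The genes that rose encode transporters: SLC3A2, the heavy chain of several amino acid exchangers, went from 101, 107 and 104 FPKM to 400, 523 and 450 FPKM, a log2 fold change of 2.13. Its partner SLC7A11, the cystine exchanger, rose with 1.502 and SLC38A2, a neutral amino acid carrier, with 0.87. SLC38A2 lay at the cutoff, and 2 genes of the list were called higher without DMSO replicate 3, without BCT replicate 3 or when tested against the cutoff, SLC38A2 being the one lost. The largest falls were in PYCR1, an enzyme of proline synthesis, at -2.22, and in CBS and CTH, the enzymes of transsulfuration, at -1.503 and -1.485. PYCR1 was at 121, 117 and 125 FPKM in the DMSO samples and 33.6, 24.1 and 21.2 FPKM in the BCT samples. After rescaling to equal sums 4 were called higher and 1 lower, with a median of 0.02 against 0.73 over all tested genes, and without BCT replicate 1 the count called lower was 11. Over all genes, equal sums gave 5706 higher and 653 lower, and leaving out BCT replicate 1 gave 2516 lower in place of 2263.

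The aminoacyl-tRNA synthetase genes, another set that ATF4 is known to control, had a median log2 fold change of 0.27. Of 14 genes, which include the tRNA exporter XPOT, 2 were called higher, a share close to the 13.9% of all tested genes. Called lower were 0, against 17.8% of all tested genes. CARS, the cysteinyl enzyme, rose with 1.12 and TARS, the threonyl enzyme, with 1.08. IARS, the isoleucyl enzyme, had the lowest value, -0.68, which was not called. After rescaling to equal sums 11 were called higher, and 5 when MIR6087 was left out of the sum. The counts over all genes were 5706 and 3402 in these settings, in place of 1764.

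Among the genes listed as further outputs of the response, 19 of 20 were tested, 6 were called higher and 3 lower, against 13.9% and 17.8% of all tested genes, with a median of 0.57. GDF15, a secreted stress cytokine, went from 31.2, 32.0 and 31.5 FPKM to 843, 832 and 722 FPKM, a log2 fold change of 4.65 (adjusted p = 1.7e-08 from limma), larger than that of any member. SQSTM1, an autophagy receptor, rose with 2.42 and GADD45A, a growth arrest gene, with 2.001. The genes that fell were EIF4EBP1, a repressor of cap-dependent translation, at -1.93, BCL2, an inhibitor of apoptosis, at -1.598, and VLDLR, a lipoprotein receptor, at -0.97. After rescaling to equal sums 11 were called higher and 2 lower, with 5706 higher and 653 lower over all genes.

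The genes of the IRE1 and ATF6 arms, the other branches that respond to unfolded protein in the endoplasmic reticulum, were mostly lower. Of 25 genes 2 were called higher and 15 lower, against 13.9% and 17.8% of all tested genes, with a median log2 fold change of -1.10. The sensors ERN1 and ATF6 rose, with 1.24 and 1.02, while ATF6B, a relative of ATF6, was called lower with -1.35. The largest falls were in DERL3, a component of the degradation machinery, at -3.19, and in SDF2L1 and PDIA4, which act in protein folding, at -2.77 and -2.64. PDIA4 was at 244, 240 and 269 FPKM in the DMSO samples and 42.6, 39.5 and 38.6 FPKM in the BCT samples, so that a folding gene and the PERK gene EIF2AK3 had opposite signs in the same samples. After rescaling to equal sums 5 were called higher and 8 lower, with a median of -0.33. Over all genes that setting called 5706 higher and 653 lower.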

How the data were processed

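RNA-seq of 22RV1 cells was analysed from 3 DMSO and 3 BCT samples, grouped by the labels. The authors deposited 1 table of FPKM values per sample. The submitters' processing notes name CASAVA, Trimmomatic 0.38, HISAT2, HTSeq and hg19, and the study's methods name StringTie for the expression values. The gene annotation is not given in the sources used here. Read counts cannot be had from these values, so no counting interval is given, and the alternatives set for counts were not run.

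Values were used as deposited, on log2(FPKM + 0.1), keeping 12729 genes whose mean reached 1 FPKM. BCT was compared with DMSO with limma 3.58.1 (R 4.3.3, trended variances) and Benjamini-Hochberg adjustment over all tested genes. Calls required a log2 fold change beyond 0.85 in either direction and an FDR below 0.05, and the code was tested on simulated data. Ratios between relatives were compared by exact permutation (scipy 1.17.1). The members and lists were chosen with earlier results of these data known. All members and family counterparts are named. From each other list come at most 3 rises and 3 falls, the largest among called genes, or the largest value where none was called. The other eIF2 and eIF2B subunits, ATF5, CEBPG, ATF6B, COL1A1 and the named cell markers are given beside them. Alternatives changed the pseudocount, filter, scaling, variance model, FDR, cutoff test, replicate block and samples. Upstream sequences are from RefSeq on GRCh38.p14, and deposited gene positions are on hg19, counted from 1. A further listed marker is not reported here.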

Additional observations from a re-analysis of the deposited data

How the results depend on the processing

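Over 19 alternatives, 181 of 190 log2 fold changes of the members kept their direction and their side of the cutoff, 5 passed the cutoff in addition and 4 changed sign. The filters, variance models, FDR, cutoff test and replicate block leave the fold change itself as it is. In those alternatives only the call could differ. The sign changed for TRIB3 after rescaling to equal FPKM sums (0.61), after the same without MIR6087 (0.22) and after quantile normalization (0.0075), and for DDIT4 after rescaling to equal sums (0.25). The genes called higher numbered 2657 with no filter, 1150 with a filter at a mean of 5 FPKM, 5706 after rescaling to equal sums, 3402 after the same without MIR6087 and 1033 when tested against the cutoff. The genes called lower numbered 653 and 1191 after the rescalings and 1392 when tested against the cutoff. The cause was not tested, except that fewer or more genes were tested under the filters. With 1 sample left out, 6 to 7 members were called higher. Of 266 list counts 241 stayed within 1.5 times and 25 moved. All 60 family ratio values kept their direction, but part of these outcomes was fixed beforehand. Equal sums, with or without MIR6087, and scaling by the median of ratios multiply both genes of a pair alike. There a ratio could shift only through the pseudocount. The direction was put to a test only by the changed pseudocounts and by quantile normalization. Only 1 of 3 same-numbered pairs of samples deviated together with a correlation over 0.1 (0.116, 0.033 and 0.034), and DMSO replicate 2 correlated best with BCT replicate 3 (0.074), so the replicate numbers were not taken as pairing. With the replicate block 1767 genes were called higher and 2266 lower, and all 10 members had the same call. A call also needs the fold change cutoff, so it does not show whether the FDR alone held. For TRIB3 the adjusted p from limma was 0.058 with the block, 0.057 without the variance trend and 0.078 with the median of ratios. With 1 sample left out it ranged from 0.01 to 0.11 for TRIB3 and from 0.0014 to 0.075 for DDIT4. The study gives only an average number of reads per sample, so it cannot be said how many reads limit the low genes.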
